A study of Mus musculus with 4 samples.

Results

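Genes of the cytotoxic granule, the cytokine interferon-gamma and receptors that trigger killing were followed in CD45+ cells of the mouse brain and dura mater. The 10 genes were chosen by name: *Gzma*, *Gzmb*, *Gzmc*, *Gzmk*, *Prf1*, *Nkg7*, *Ifng*, *Fasl*, *Klrk1* and *Ncr1*. They are 10 of the 19491 genes listed in any of the 4 libraries, and every library lists all 10. Adult C57BL/6J mice, 8 weeks old by the series labels, received a photothrombotic injury (PTI), which damages vessels of the meninges as well as the brain, or served as controls. CD45+ cells of each tissue were sorted by FACS on day 3 and sequenced on the 10x Chromium platform with 3′ reagents. The labels call the controls CT and the injured mice INJ, and the controls were taken as the sham group of the study. They are called S3 (sham, day 3) and D3 (day 3 after PTI) below. There was 1 library for each of brain S3, brain D3, dura mater S3 and dura mater D3. The number of mice behind a library is not given in the sources used here, so the spread between mice is unknown and no P value was computed.

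Cytotoxic lymphocytes kill by releasing granules at the contact with a target cell. Perforin opens the membrane of the target, granzymes are serine proteases that enter through it, and Fas ligand kills by a separate route that needs no granule. Natural killer (NK) cells, the related group 1 innate lymphoid cells (ILC1) and subsets of T cells carry this machinery and also secrete interferon-gamma, which activates macrophages and induces antigen presentation.

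The libraries held 3515 to 5925 barcodes, of which 2603 to 4438 were kept as cells. Median depth of kept cells was 8252 UMIs (unique molecular identifiers, each standing for 1 captured RNA molecule) in brain S3 and 9320 in dura mater S3. The D3 libraries were deeper, with 14269.5 UMIs in the brain and 14156 in the dura mater. Pairs of libraries shared 3 to 11 barcodes. A level is given in CPM, the UMIs of a gene per 1000000 UMIs summed over a class. Its error is an exact Poisson 95% interval, a share of cells has an exact binomial (Clopper-Pearson) 95% interval, and the interval of a log2 ratio treats both UMI counts as Poisson (exact, 95%). All of these intervals cover counting error only. Where a gene had 0 UMIs, the limit given is that of 3 UMIs. A ratio was called when it was at least 2-fold with an interval off 0, and genes with fewer than 10 UMIs in both groups together were left out.

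Cells were put into classes by UMIs of marker genes, none of which was among the 10 genes. NK/ILC1 cells needed at least 4 UMIs from at least 2 of *Klrb1c*, *Klre1*, *Klrd1*, *Klra4*, *Klra7*, *Klra8* and *Klra9* and at most 1 UMI of the CD3 genes. There were 241 NK/ILC1 cells in brain S3, 131 in brain D3, 71 in dura mater S3 and 72 in dura mater D3. They carried a median of 25, 21, 26 and 28.5 UMIs of these receptor genes in the same order, a median of 0 UMIs of the CD3 genes, and *Cd3e* at 0 UMIs in every library. Doubling the required UMIs removed 10, 12, 4 and 1 of them. Alpha-beta T cells, with CD3 and *Trac*, *Trbc1* or *Trbc2*, numbered 650, 141, 103 and 64. Gamma-delta T cells, with CD3 and *Trdc*, numbered 162, 45, 117 and 90, and group 2 innate lymphoid cells (ILC2, with *Gata3*) numbered 59, 19, 80 and 109. Median depth of NK/ILC1 cells was 7360, 5962, 6736 and 7715.5 UMIs, so these cells were of similar depth in all libraries. Granulocyte markers, a measure of free RNA, had a median of 1 UMI in NK/ILC1 cells of brain S3 and 5 UMIs in dura mater D3. Their part in the results was not tested.

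Some of the cells in the NK/ILC1 gate went against its name. They met it only through *Klrd1*, which dendritic cells carry too, and numbered 33 of 241 in brain S3, 26 of 131 in brain D3, 7 of 71 in dura mater S3 and 9 of 72 in dura mater D3. They were deep, at a median of 9106, 14081.5, 13153 and 18563 UMIs, so they held 16.5%, 32.2%, 13.5% and 24.1% of the UMIs of the class. The antigen presentation gene *Cd74* stood in them at 11066, 22827, 18514 and 22727 CPM, against 478.0, 190.2, 122.2 and 163.8 in the other NK/ILC1 cells, and the MHC class II gene *H2-Ab1* at 4368.4 to 10838 against 46.2 to 152.9. Of these cells, 10, 18, 4 and 6 had 0 *Nkg7* UMIs. Most levels and the main ratios in NK/ILC1 cells are therefore given again with the gate read without *Klrd1*. That gate was added after the data were seen, and it left 208, 105, 64 and 63 cells. Results not repeated with it include the cells admitted through *Klrd1*.

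Positions of the genes are those of GENCODE vM21 on GRCm38, the mm10 build used by the authors. *Gzmb* (chr14:56258838-56262260, minus strand) and *Gzmc* (chr14:56231441-56234656, minus strand) are neighbours in a cluster of granzyme genes. *Gzma* (chr13:113093825-113100981, minus strand) lies beside *Gzmk* (chr13:113171608-113225908, minus strand), and the annotation of *Gzmk* overlaps that of *Esm1* on the other strand. *Prf1* (chr10:61297833-61304680) and *Ifng* (chr10:118441046-118445892) are on the plus strand of chromosome 10. *Nkg7* (chr7:43437073-43438249) and *Ncr1* (chr7:4337724-4345164) are on the plus strand of chromosome 7. *Fasl* (chr1:161780689-161788495) and *Klrk1* (chr6:129610323-129623864) are on the minus strand. Since 3′ reagents read the ends of transcripts, the last 500 bases of each gene's longest transcript were compared with all other genes. No run of 60 bases was shared, so no reads of these ends could be confused between the granzymes at that length.

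The 250 bases before the RefSeq start sites of *Gzmb* and *Ifng* (GRCm38.p6) are shown because these are the genes whose levels moved in opposite directions in NK/ILC1 cells of the dura mater below. The *Gzmb* stretch is chr14:56262335-56262584 on the minus strand and the *Ifng* stretch is chr10:118440796-118441045 on the plus strand, both written 5′ to 3′ along the gene. Capitals mark matches on either strand to TCACAC (the core of a T-box element, read by T-bet and Eomes), TGTGGT (Runx) and TGACTCA (AP-1).
Gzmb: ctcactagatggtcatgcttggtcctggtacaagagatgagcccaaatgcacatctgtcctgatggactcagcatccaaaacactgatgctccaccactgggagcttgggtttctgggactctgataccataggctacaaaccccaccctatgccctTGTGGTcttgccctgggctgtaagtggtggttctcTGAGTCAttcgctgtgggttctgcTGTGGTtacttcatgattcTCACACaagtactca
Ifng: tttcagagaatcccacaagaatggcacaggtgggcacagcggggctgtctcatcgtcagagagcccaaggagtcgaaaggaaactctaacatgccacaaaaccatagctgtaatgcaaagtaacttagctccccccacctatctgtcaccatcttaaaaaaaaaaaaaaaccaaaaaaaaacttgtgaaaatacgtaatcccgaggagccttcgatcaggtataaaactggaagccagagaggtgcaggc
The *Gzmb* stretch held TGTGGT 93 and 34 bases before the start, the AP-1 letters on the other strand at 58 and TCACAC at 15, and the *Ifng* stretch held none of these letters. Over windows from 250 bases before to 50 after the start, TCACAC was found for 4 of the 10 genes (*Gzmb*, *Gzmk*, *Nkg7*, *Ncr1*) against 14.5% of all 32851 promoters. TGTGGT was found for 7 of 10 (*Gzma*, *Gzmb*, *Gzmc*, *Prf1*, *Nkg7*, *Klrk1*, *Ncr1*) against 16.8%, and TGACTCA for 2 of 10 (*Gzmb*, *Klrk1*) against 5.2%. The matches describe these letters and say nothing of binding.

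NK/ILC1 cells held the largest median share of these transcripts in every library. Over the 10 genes, the median share of a gene's UMIs that lay in NK/ILC1 cells was 40.5% in brain S3, 38.9% in brain D3, 41.6% in dura mater S3 and 41.2% in dura mater D3. Alpha-beta T cells held a median of 36.1%, 22.8%, 25.6% and 7.93%. The share in cells that met no gate, or T cells of unclear receptor, had a median of 15.1%, 26.6%, 16.9% and 26.6%. Of the UMIs of the 10 genes in cells without a class, 94.2% in brain S3, 91.6% in brain D3, 52.0% in dura mater S3 and 84.7% in dura mater D3 lay in cells with NK receptors or CD3. Cells that carried myeloid markers as well held 49.6%, 53.0%, 44.1% and 60.6% of them, and whether these were pairs of cells was not tested. Myeloid cells held a median of 0.81% to 1.55% of a gene's UMIs, with *Klrk1* (up to 29.9%) and *Nkg7* (up to 11.8%) above that.

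**Figure D1:**
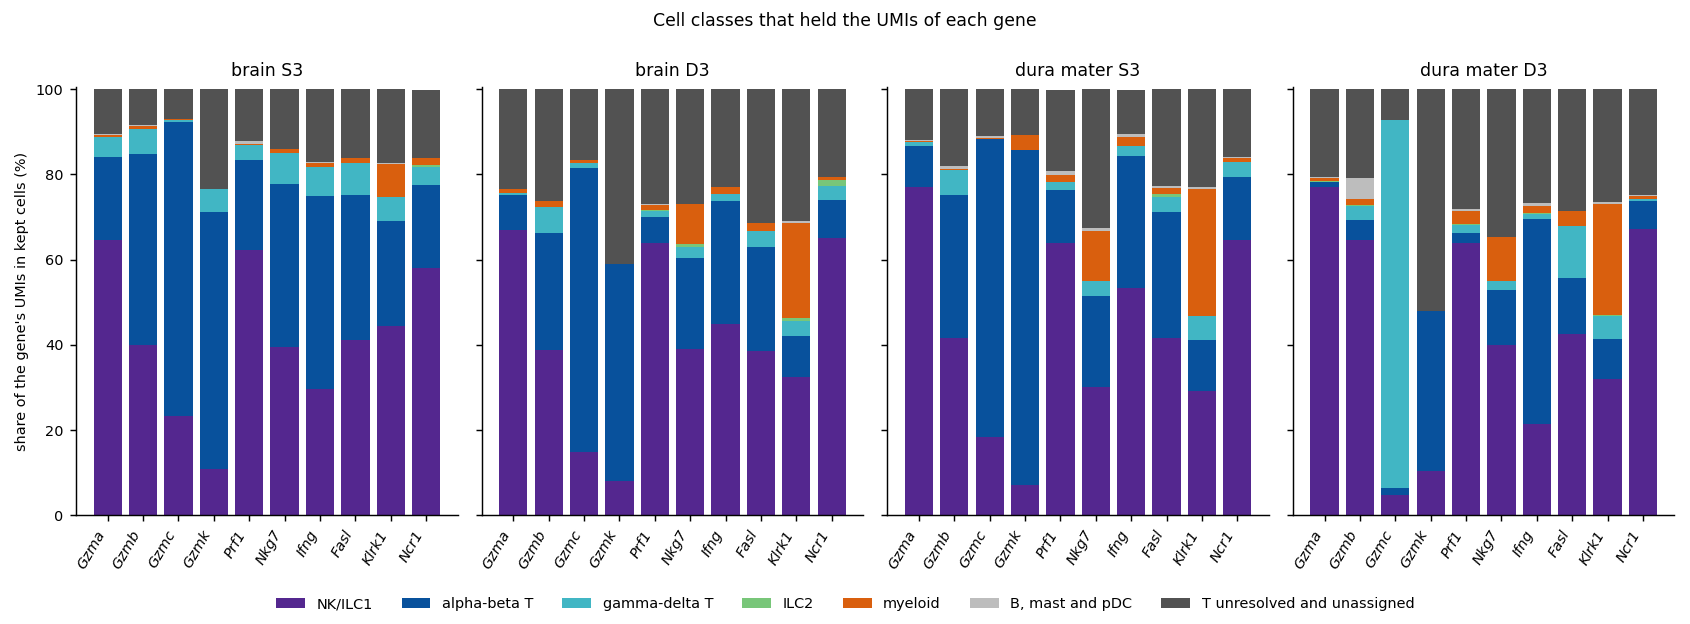
Share (%) of the UMIs of each gene in kept cells that lay in each cell class, 1 panel per library and 1 stacked bar per gene. *Gzma*, *Prf1* and *Ncr1* lay mostly in NK/ILC1 cells in every panel, *Gzmk* lay mostly in alpha-beta T cells in the S3 panels, and myeloid cells held a visible share of *Klrk1* and *Nkg7*.

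NK/ILC1 cells had the highest level of all classes in 31 of the 40 pairs of gene and library. The exceptions were *Gzmk* in every library, *Gzmc* in every library and *Ifng* in dura mater D3. *Gzmk* and, except in dura mater D3, *Gzmc* were highest in alpha-beta T cells, although in brain S3 their counting intervals overlapped those of NK/ILC1 cells. *Gzmc* in dura mater D3 was highest in gamma-delta T cells, with all of its UMIs there in 1 cell. In the brain at S3, alpha-beta and gamma-delta T cells were neighbours in this order with overlapping intervals for *Prf1*, *Nkg7*, *Fasl*, *Klrk1* and *Ncr1*.

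**Figure D2:**
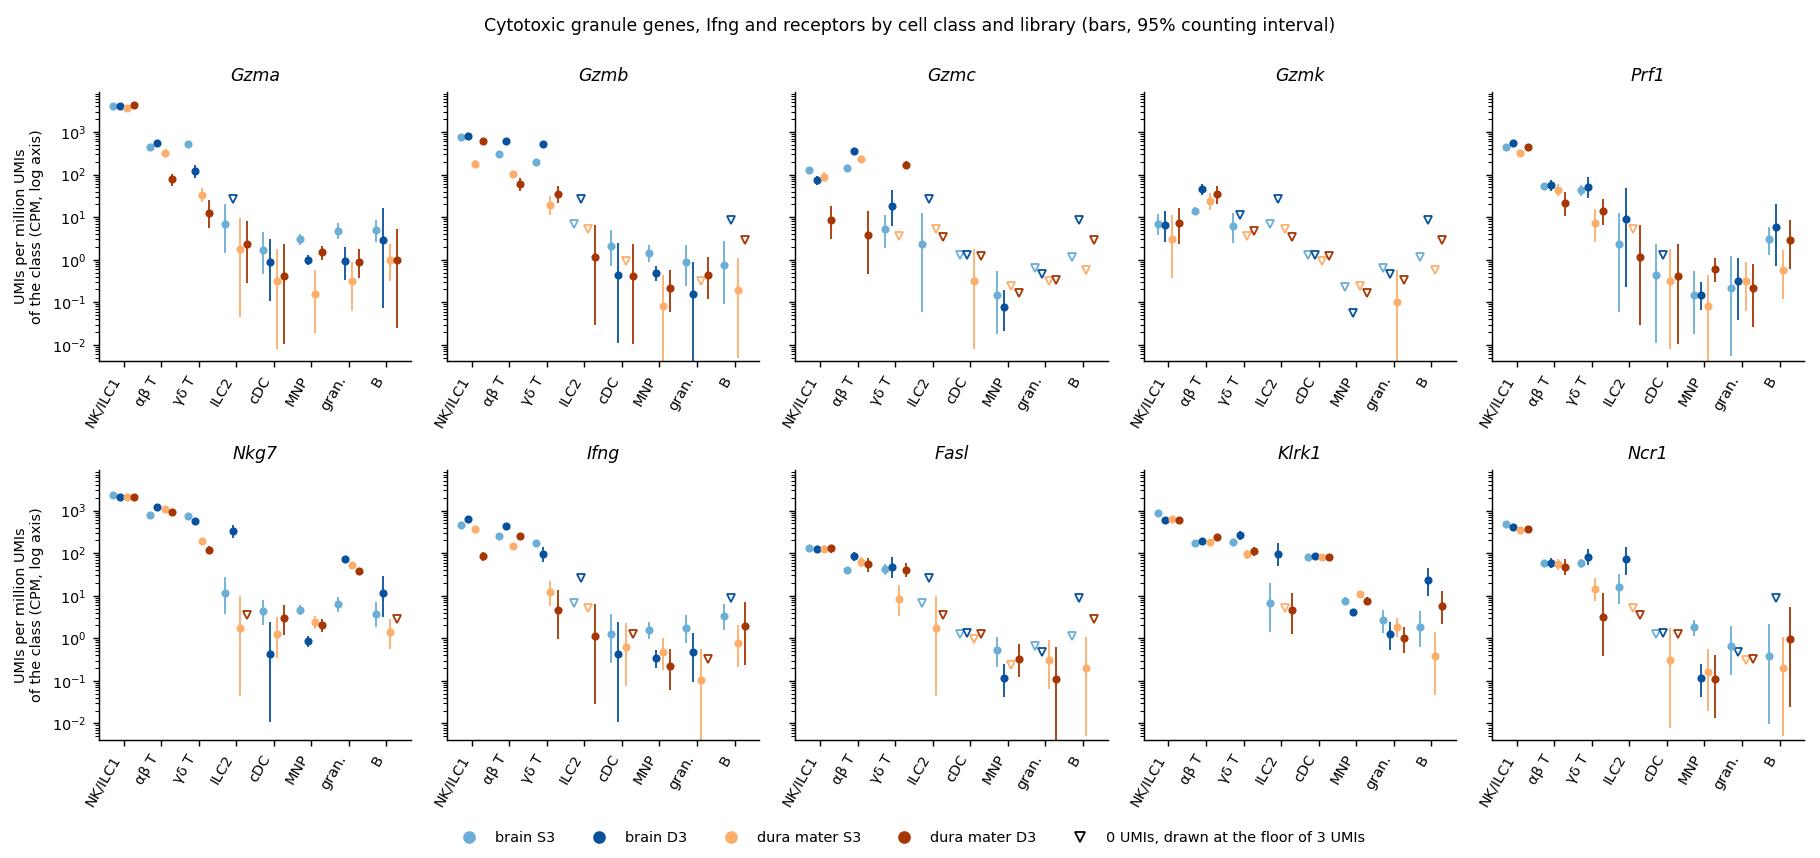
Level of each gene (CPM, log axis) in 8 classes and 4 libraries, with 95% counting intervals. Open triangles stand at the limit of 3 UMIs where none was seen (MNP, mononuclear phagocytes; gran., granulocytes; cDC, conventional dendritic cells). The levels fall from NK/ILC1 over alpha-beta and gamma-delta T cells to ILC2, myeloid and B cells for most genes, while *Klrk1* stays near 80 CPM in cDC.

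Of the granzymes, *Gzma*, a tryptase-like granzyme, stood in NK/ILC1 cells at 4121.3 CPM in brain S3 and 4136.1 in brain D3. It stood at 3683.2 in dura mater S3 and 4409.3 in dura mater D3, so all libraries lay close together. With the gate read without *Klrd1* these levels were 4906.5, 6072.3, 4256.9 and 5808.9 CPM in brain S3, brain D3, dura mater S3 and dura mater D3. A *Gzma* UMI was seen in 61.8% (95% interval 55.4 to 68.0) of NK/ILC1 cells in brain S3, 68.7% in brain D3, 78.9% in dura mater S3 and 80.6% in dura mater D3. B cells, which should lack it, showed one in 2.64%, 1.33%, 0.727% and 0.645% of cells at median depths of 4721.5, 3474, 5593.5 and 5164 UMIs.

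*Gzmb*, the granzyme that cuts after aspartate and activates caspases, stood in NK/ILC1 cells at 752.5 CPM (714.8 to 791.7) in brain S3 and 811.5 (758.0 to 867.7) in brain D3. It was at 180.4 (149.1 to 216.4) in dura mater S3 and 600.3 (544.3 to 660.5) in dura mater D3. Dura mater S3 was the low library and its interval did not touch any other. This order also held without *Klrd1* in the gate, at 795.3, 1090.8, 208.5 and 775.8 CPM in brain S3, brain D3, dura mater S3 and dura mater D3. The share of cells with a *Gzmb* UMI was 56.8%, 64.9%, 45.1% and 65.3% in brain S3, brain D3, dura mater S3 and dura mater D3, against 0.0% to 0.407% of B cells.

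*Gzmc*, a granzyme of the same gene cluster, was sparse. It stood in NK/ILC1 cells at 130.7 CPM in brain S3, 73.0 in brain D3, 88.7 in dura mater S3 and 8.58 in dura mater D3, and was seen in 20, 11, 3 and 5 cells. A single cell held 35.9%, 58.4%, 91.2% and 33.3% of those UMIs, so the intervals are too narrow for it. The cell with most *Gzmc* in dura mater S3 was among those admitted through *Klrd1*, and the level there was 8.99 CPM without them. *Gzmk*, a granzyme known from memory CD8 T cells, stood at 3.11 to 7.15 CPM in NK/ILC1 cells, where it had 2 to 14 UMIs a library.

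*Prf1*, which encodes the pore-forming perforin, stood in NK/ILC1 cells at 450.2 CPM (421.1 to 480.7) in brain S3 and 542.2 (498.7 to 588.6) in brain D3. It was at 317.3 (275.3 to 364.0) in dura mater S3 and 438.8 (391.1 to 490.7) in dura mater D3. A *Prf1* UMI was seen in 71.8% to 81.7% of NK/ILC1 cells and in 0.436% to 2.67% of B cells. The *Prf1* levels without *Klrd1* in the gate were 520.9, 781.8, 359.5 and 576.2 CPM in brain S3, brain D3, dura mater S3 and dura mater D3. *Nkg7*, a membrane protein of the granule needed for its release, was similar across libraries. Its levels were 2308.5, 2077.0, 2141.8 and 2095.3 CPM in brain S3, brain D3, dura mater S3 and dura mater D3, and it was seen in 86.3% to 95.4% of NK/ILC1 cells. The *Nkg7* levels without *Klrd1* in the gate were 2567.2, 2921.5, 2430.4 and 2700.1 CPM in the same order. It was then seen in 99.5% to 100% of cells, and brain D3 was the highest library.

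*Ifng* stood in NK/ILC1 cells at 449.7 CPM (420.6 to 480.2) in brain S3, 627.6 (580.7 to 677.2) in brain D3, 360.9 (315.9 to 410.4) in dura mater S3 and 84.3 (64.2 to 108.8) in dura mater D3. Dura mater D3 was the low library. Without *Klrd1* in the gate the *Ifng* levels were 501.0, 837.7, 411.7 and 111.1 CPM in brain S3, brain D3, dura mater S3 and dura mater D3. A UMI was seen in 69.3% (63.1 to 75.1), 61.1% (52.2 to 69.5), 47.9% (35.9 to 60.1) and 30.6% (20.2 to 42.5) of cells, against 0.0% to 1.83% of B cells. With every cell thinned to 2000 UMIs these shares were 46.9%, 42.7%, 31.0% and 11.1%. *Fasl*, the ligand of the death receptor Fas, lay between 123.2 and 132.2 CPM in all 4 libraries, with overlapping intervals. Its levels without *Klrd1* in the gate were 139.0 to 177.6 CPM, and the intervals again overlapped.

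*Klrk1* encodes NKG2D, a receptor for stress-induced ligands. Its NK/ILC1 levels were 864.5 CPM (824.1 to 906.5) in brain S3 and 594.4, 628.4 and 606.0 in brain D3, dura mater S3 and dura mater D3, so brain S3 was the high library and the others overlapped. It was seen in 91.6% to 98.3% of NK/ILC1 cells. The *Klrk1* levels without *Klrd1* in the gate were 905.9, 760.8, 679.5 and 726.8 CPM in the same order, with brain S3 again the high library. *Ncr1* encodes NKp46, a receptor that marks NK cells and ILC1. It stood at 488.0 CPM in brain S3, 407.6 in brain D3, 342.2 in dura mater S3 and 370.2 in dura mater D3, and was seen in 80.2% to 87.1% of cells. The *Ncr1* levels without *Klrd1* in the gate were 523.3, 562.2, 368.5 and 465.1 CPM in the same order, so brain D3 was then the highest.

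The NK/ILC1 cells were then divided by 2 sets of marker genes. A cell lay on the ILC1 side where UMIs of *Itga1*, *Tmem176a*, *Tmem176b*, *Cd200r1*, *Il7r* and *Cxcr6* outnumbered those of *Eomes*, *Itga2*, *Itgam* and *Klra8*, and otherwise on the NK side. This is a range cut by a score, and 26, 28, 5 and 3 cells lay within 1 UMI of the cut in brain S3, brain D3, dura mater S3 and dura mater D3. The ILC1 side held 40.2% (34 to 46.7) of NK/ILC1 cells in brain S3, 32.1% (24.2 to 40.8) in brain D3, 19.7% (11.2 to 30.9) in dura mater S3 and 19.4% (11.1 to 30.5) in dura mater D3. Of the cells admitted through *Klrd1*, 32 in brain S3, 23 in brain D3, 7 in dura mater S3 and 8 in dura mater D3 lay on the ILC1 side. Without them it held 31.2% (25 to 38), 18.1% (11.3 to 26.8), 10.9% (4.51 to 21.2) and 9.52% (3.58 to 19.6) of the cells, which were 65, 19, 7 and 6 cells.

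*Gzma* and *Prf1* lay on the NK side in every library. *Gzma* stood there at 7349.9 CPM in brain S3, 7046.4 in brain D3, 4677.7 in dura mater S3 and 5808.0 in dura mater D3, against 192.4, 392.3, 7.3 and 586.9 on the ILC1 side. It was seen in 93.3% to 96.6% of NK-side cells and in 7.14% to 16.7% of ILC1-side cells. Without the cells admitted through *Klrd1*, *Gzma* on the ILC1 side was at 297.8, 1125.8, 19.9 and 1911.7 CPM, still below the NK side in each library, and 14.3% to 33.3% of these cells showed it. *Prf1* stood at 708.0, 898.1, 381.4 and 577.9 CPM on the NK side and at 136.5, 84.5, 80.4 and 58.7 on the ILC1 side, which became 164.7, 190.8, 139.3 and 173.8 without those cells. The ILC1-side *Gzma* levels without them rest on few cells. That of 1911.7 CPM in dura mater D3 came from 2 cells, that of 1125.8 in brain D3 from 6 cells and that of 19.9 in dura mater S3 from 1 UMI.

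*Gzmc* lay on the other side in 3 of the libraries. Its ILC1-side level was 265.2 CPM at S3 and 160.4 at D3 in the brain, against 20.2 and 5.05 CPM on the NK side. In dura mater S3 it was 416.4 CPM, with 91.2% of the UMIs in 1 cell, against 0 UMIs on the NK side. In dura mater D3 the ILC1 side had 0 *Gzmc* UMIs in 14 cells and the NK side 11.7 CPM. Without the cells admitted through *Klrd1* the ILC1 side had *Gzmc* at 271.5 CPM at S3 and 451.6 at D3 in the brain, and at 99.5 CPM from 5 UMIs in dura mater S3. *Gzmb* was carried by both sides in the brain, at 906.6 and 1162.6 CPM on the NK side and 565.0 and 359.8 on the ILC1 side in S3 and D3, or 578.0 and 572.4 there without those cells. *Klrk1* was closer between the sides, with 636.3 to 918.5 CPM on the NK side and 446.5 to 798.9 on the ILC1 side, or 807.8 to 1114.2 there without those cells.

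**Figure D3:**
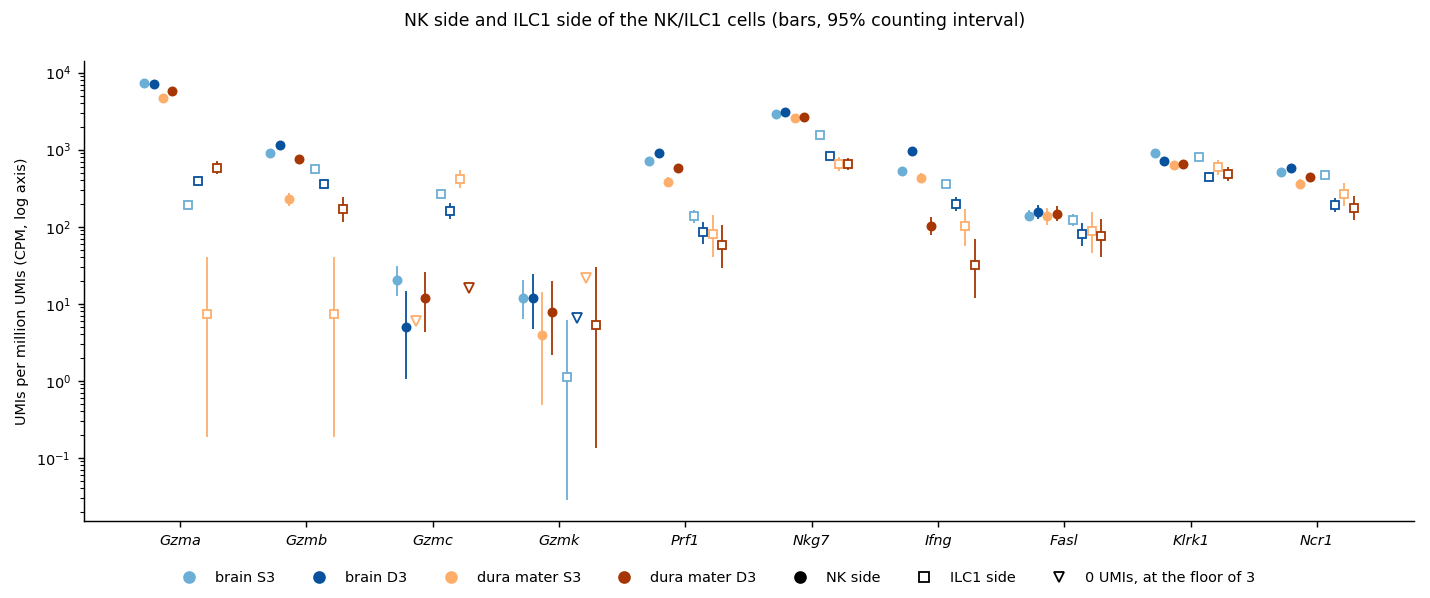
Level (CPM, log axis) of each gene on the NK side (filled circles) and the ILC1 side (open squares) of the NK/ILC1 cells, by library, with 95% counting intervals. Open triangles stand at the limit of 3 UMIs. *Gzma* and *Prf1* are higher on the NK side in every library, *Gzmc* is higher on the ILC1 side in brain S3, brain D3 and dura mater S3, and *Fasl*, *Klrk1* and *Ncr1* lie closer together. The ILC1 side includes the cells admitted through *Klrd1*, without which its *Gzma* and *Klrk1* levels were higher.

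Within the NK/ILC1 gate, *Gzma* was seen more often in cells with a *Prf1* UMI. After thinning to 2000 UMIs, a *Gzma* UMI was found in 76.4% of brain S3 cells with a *Prf1* UMI and in 37.7% of those without. The pairs were 85.3% and 39.3% in brain D3, 87.9% and 63.2% in dura mater S3, and 97.7% and 50% in dura mater D3. *Gzmc* ran the other way in the brain, where *Gzma* was found in 13.3% of brain S3 cells with a *Gzmc* UMI and in 61.1% of those without, and in 16.7% and 68.0% in brain D3. *Ifng* in brain S3 was found in 48.4% of cells with a *Gzmb* UMI and 45.9% of those without, while in brain D3 these shares were 57.4% and 27.0%. Without *Klrd1* in the gate the *Ifng* shares were 50% and 47.4% in brain S3 and 56.2% and 36.6% in brain D3, and those of *Gzma* with and without a *Prf1* UMI were 88.7% and 61.8% in brain D3. The *Gzma* pairs of the other libraries are not given with that gate. In the dura mater the cells admitted through *Klrd1* held no *Gzma* UMIs. The class had 2368 *Gzma* UMIs at S3 and 3085 at D3 with or without them. They therefore count among the cells without *Gzma* in the dura mater pairs. The cells of 1 library are not replicates, so these shares are descriptions.

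Alpha-beta T cells carried the same genes in a minority of cells. *Gzma* stood at 448.1 CPM in brain S3, 547.5 in brain D3, 324.0 in dura mater S3 and 77.4 in dura mater D3, and was seen in 9.23%, 12.8%, 12.6% and 6.25% of cells. *Nkg7* was broader, at 803.6, 1216.3, 1068.1 and 911.0 CPM in 59.4%, 73.8%, 65% and 64.1% of cells. *Ifng* stood at 246.9 CPM (234.0 to 260.4) in brain S3, 432.3 (392.1 to 475.4) in brain D3, 147.3 (123.5 to 174.3) in dura mater S3 and 257.3 (215.4 to 304.9) in dura mater D3.

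Alpha-beta T cells with at least 4 UMIs of the NK receptor genes were 185 cells of brain S3, 38 of brain D3, 30 of dura mater S3 and 18 of dura mater D3. *Klrd1* counts towards these UMIs, 1 gene could supply all of them, and the group was not read without *Klrd1*. *Gzmb* stood in these cells at 832.8, 1576.6, 249.5 and 147.7 CPM, against 81.7, 322.4, 47.6 and 18.3 in the remaining CD8 cells and 2.34, 18.2, 11.7 and 25.9 in CD4 cells. In the brain, *Gzma* was at 1164.3 CPM at S3 and 1207.6 at D3 in the cells with NK receptors. The remaining CD8 cells had it at 178.2 and 457.8 CPM. All but 2 of the *Gzmc* UMIs of brain S3 alpha-beta T cells lay in the cells with NK receptors, and CD8 cells without them had 0 *Gzmc* UMIs in every library. *Gzmk* had another pattern, with 33.1, 91.6, 47.6 and 128.4 CPM in CD8 cells (6 cells in dura mater D3) and 60.6 CPM in CD4 cells of brain D3. *Ifng* was carried by CD4 cells too, at 169.7 CPM in brain S3, 399.9 in brain D3, 99.7 in dura mater S3 and 362.1 in dura mater D3, with 168, 27, 25 and 21 cells.

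Gamma-delta T cells carried more of these transcripts in the brain than in the dura mater. *Nkg7* stood at 736.2 CPM in brain S3 and 581.3 in brain D3, against 193.9 in dura mater S3 and 120.1 in dura mater D3. *Ifng* stood at 172.8, 93.2, 12.1 and 4.74 CPM in the same order. Gamma-delta T cells with NK receptors numbered 34, 6, 8 and 4, and *Nkg7* was seen in every cell of these. In the remaining gamma-delta T cells of the dura mater, *Nkg7* stood at 21.5 CPM in S3 and 8.57 in D3. *Klrk1* was broader, seen in 29.0%, 44.4%, 18.8% and 26.7% of all gamma-delta T cells.

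ILC2 of brain S3, dura mater S3 and dura mater D3 had 0.0 to 16.1 CPM of each of the 10 genes. The highest was *Ncr1* in brain S3, at 16.1 CPM (6.48 to 33.2) from 7 UMIs in 3 cells, against 0.379 (0.00959 to 2.11) in B cells of that library. In brain D3, *Nkg7* stood at 329.2 CPM, *Klrk1* at 97.9 and *Ncr1* at 71.2, but this class was 19 cells there and 2 or 3 of them held these UMIs. *Gzmk* had 0 UMIs in ILC2 of every library, which allows up to 6.9 CPM in brain S3, 26.7 in brain D3, 5.21 in dura mater S3 and 3.45 in dura mater D3.

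Among myeloid cells, *Klrk1* in conventional dendritic cells and *Nkg7* in granulocytes stood most clearly above the level of free RNA. *Klrk1* in conventional dendritic cells was at 80.2 CPM (69.1 to 92.5) in brain S3, 87.9 (76.2 to 100.8) in brain D3, 81.9 (72.3 to 92.5) in dura mater S3 and 81.4 (70.3 to 93.6) in dura mater D3. The 4 libraries overlapped. It was seen in 53.8% to 61.9% of these cells, whose median depth was 13739.5 to 20254 UMIs, against 0.797% to 1.97% of granulocytes and 0.291% to 2.67% of B cells. Dendritic cells with *Cd209a* had 76.5 to 89.4 CPM. Mononuclear phagocytes had *Klrk1* at 4.19 to 10.8 CPM, and in dura mater S3 their interval lay above that of granulocytes. *Gzma*, *Gzmb*, *Prf1* and *Ifng* were below 5 CPM in mononuclear phagocytes, dendritic cells and granulocytes of every library.

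*Nkg7* in granulocytes stood at 6.33 CPM in brain S3, 73.8 in brain D3, 52.3 in dura mater S3 and 37.1 in dura mater D3. These UMIs lay in granulocytes with at least 5 UMIs of the primary granule genes *Mpo*, *Elane*, *Prtn3* and *Ctsg*, which mark immature cells. In those cells the level was 508.8 CPM (21 cells) in brain D3, 343.5 (35 cells) in dura mater S3 and 231.3 (32 cells) in dura mater D3, against 3.24 to 8.65 CPM in the other granulocytes. Cells with these primary granule genes that met no gate showed it as well, at 883.7, 652.2 and 498.4 CPM in 10, 54 and 23 cells. *Prf1* had 0 UMIs in the granulocytes with primary granule genes.

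The first question of the design is how the brain changed from S3 to D3. In NK/ILC1 cells of the brain, 0 of the 10 genes were called higher and 0 lower, where 3.87% of 9780 genes were called higher and 2.63% lower. The largest differences were log2 -0.84 (-1.23 to -0.47) for *Gzmc*, -0.54 (-0.67 to -0.41) for *Klrk1* and 0.48 (0.33 to 0.63) for *Ifng*. *Gzma* differed by 0.01 (-0.05 to 0.06). The median over the 10 genes was -0.10, beside -0.04 over all genes tested. Without *Klrd1* in the gate 0 were again called in either direction, but the values moved upward. *Ifng* was then at 0.74 (0.59 to 0.90), *Prf1* at 0.59, *Gzmb* at 0.46, *Gzma* at 0.31, *Klrk1* at -0.25 and *Gzmc* at -0.05. On the NK side alone *Ifng* went from 528.7 to 962.1 CPM, log2 0.86 (0.69 to 1.03), short of 2-fold. With the gate read without *Klrd1* it was 0.92 (0.75 to 1.09). *Gzmc* on the NK side was called lower, from 20.2 to 5.05 CPM, log2 -2.0 (-4.38 to -0.27). This call rests on few cells. With the gate read without *Klrd1* there were 22 UMIs in 4 cells at S3, 63.6% of them in 1 cell. At D3 there were 3 UMIs. On the ILC1 side *Ncr1* was called lower, from 463.2 to 192.9 CPM, log2 -1.26 (-1.61 to -0.93), and *Gzma* higher, at 1.03 (0.72 to 1.34), while *Ifng* went from 353.6 to 197.2 CPM, log2 -0.84 (-1.19 to -0.50). Of the 42 ILC1-side cells of brain D3, however, 23 had been admitted through *Klrd1*. Without these, 19 cells were left, too few for a ratio. The levels at S3 and D3 were then 555.3 and 394.4 CPM for *Ncr1*, 297.8 and 1125.8 for *Gzma* and 444.9 and 248.1 for *Ifng*. These D3 levels rest on few cells for *Gzma* and *Ifng*. *Gzma* was seen in 6 of the 19 cells, and 3 cells held 88.1% of its UMIs. *Ifng* had 39 UMIs, 64.1% of them in 1 cell. The 2 sides were not compared by a test, and the share of all genes called was not computed within either side.

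In NK/ILC1 cells of the dura mater, *Gzmb* rose 3.33-fold from S3 to D3 and *Ifng* fell to 0.234 of its S3 level. Of 9 genes with enough UMIs, 1 was called higher and 2 lower, where 2.51% of 8412 genes were called higher and 2.09% lower. The log2 ratio of *Gzmb* was 1.73 (1.43 to 2.04), with 116 UMIs in 32 cells at S3 and 420 UMIs in 47 cells at D3. On the NK side alone it was 1.74 (1.43 to 2.05). Without the top cell of each library it was 1.94, and it lay between 1.55 and 1.94 over all alternatives.

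The log2 ratio of *Ifng* in the dura mater was -2.10 (-2.54 to -1.68). The UMIs were clumped, since 1 of 71 cells held 61.2% of them at S3 and 1 of 72 cells held 44.1% at D3. Without the top cell of each library the ratio was -1.57, as a mean over cells it was -1.04, and over all alternatives it lay between -2.43 and -1.04, past 2-fold in each. *Gzmc* was also called lower, at log2 -3.37 (-4.88 to -2.16), but it was -0.44 without the top cells and 0.33 (-1.65 to 2.38) without *Klrd1* in the gate, so it rests on a single S3 cell. *Gzmb* and *Ifng* were still called without *Klrd1* in the gate, at 1.90 (1.59 to 2.21) and -1.89 (-2.33 to -1.47). *Prf1*, *Nkg7*, *Fasl*, *Klrk1*, *Ncr1* and *Gzma* stayed between -0.05 and 0.47 with *Klrd1* in the gate. Without it they lay between 0.1 for *Klrk1* and 0.68 for *Prf1*. The median over the 9 genes was 0.03, beside -0.03 over all genes.

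**Figure D4:**
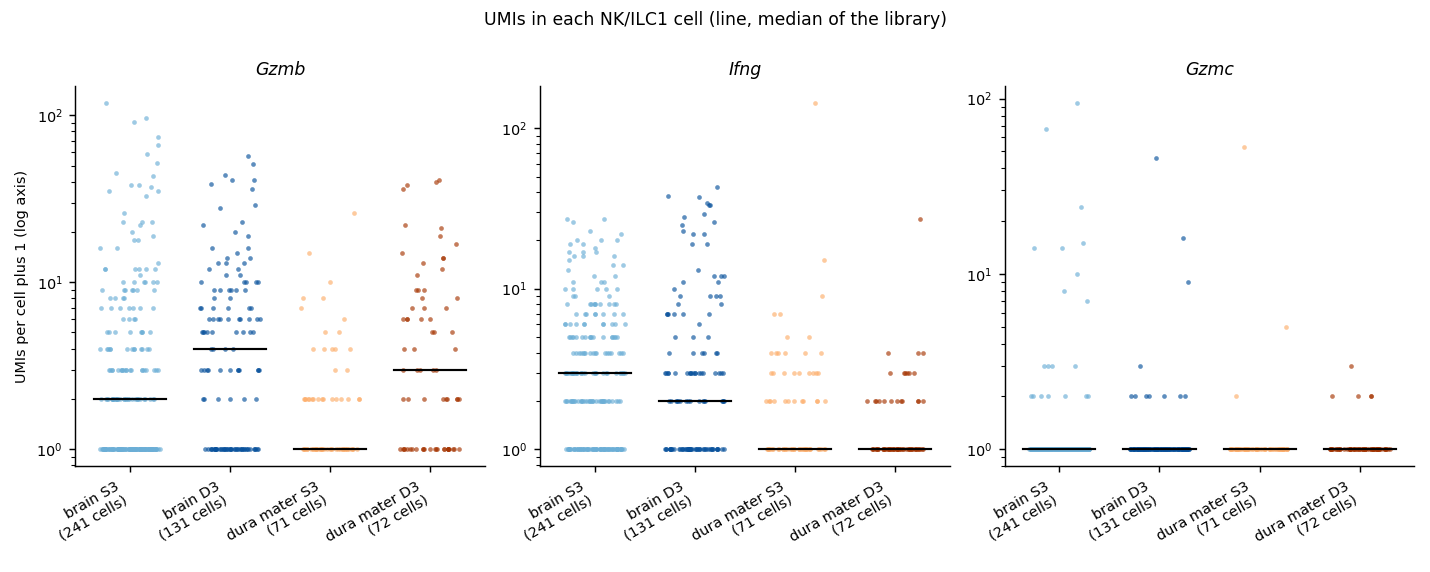
UMIs plus 1 (log axis) of *Gzmb*, *Ifng* and *Gzmc* in each NK/ILC1 cell of the 4 libraries, with the median of a library as a line. The S3 dura mater cells have few *Gzmb* UMIs against D3, a single S3 dura mater cell stands far above the others for *Ifng*, and *Gzmc* is at 0 UMIs in most cells of all libraries.

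Sorted cells had been digested with enzymes, and interferon-gamma is inducible, so 12 genes known to respond to dissociation were read beside it. Their summed level in NK/ILC1 cells was 9540.2 CPM in brain S3, 7848.4 in brain D3, 7405.3 in dura mater S3 and 6650.5 in dura mater D3. From S3 to D3 in the dura mater, 0 of the 12 were called higher and 2 lower, where 2.51% of 8412 genes were called higher and 2.09% lower. The 2 called lower were the heat shock genes *Hspa1a* at log2 -2.70 and *Hspa1b* at -2.75, and the median of the 12 was -0.10. In the brain 0 of the 12 were called in either direction, where 3.87% of 9780 genes were called higher and 2.63% lower, and the median of the 12 was -0.20. The part of these 12 genes in the *Ifng* difference was not tested.

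In alpha-beta T cells of the brain, 4 of the 10 genes rose from S3 to D3 and 0 fell, where 2.57% of 10772 genes were called higher and 1.67% lower. *Gzmk* rose 3.28-fold, log2 1.71 (1.15 to 2.26), with 77 UMIs in 29 of 650 cells at S3 and 45 UMIs in 20 of 141 cells at D3. *Gzmc* rose by log2 1.34 (1.15 to 1.52), *Fasl* by 1.09 (0.70 to 1.46) and *Gzmb* by 1.03 (0.89 to 1.16). The share of cells with a *Gzmb* UMI was 16.2% at S3 and 25.5% at D3. *Ifng* was at 0.81 (0.65 to 0.97) and *Nkg7* at 0.60 (0.50 to 0.69), both short of 2-fold, and *Prf1* was at 0.02. The median over the 10 genes was 0.70, beside 0.05 over all genes. With a stricter gate only *Gzmk* was called, since *Gzmb* was then at 0.99, *Fasl* just short of 2-fold and *Gzmc* at 0.08.

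Cells with NK receptors made up a similar part of this class at both times. They were 185 of 650 alpha-beta T cells in brain S3 and 38 of 141 in brain D3. Within them *Gzmb* went from 832.8 to 1576.6 CPM, log2 0.92 (0.77 to 1.07), and *Gzmc* from 412.4 to 1052.1, log2 1.35 (1.16 to 1.54). The *Gzmc* ratio depends on few cells. In the whole class it was 0.08 under the stricter gate, which left out 39 of 650 cells at S3 and 9 of 141 at D3. *Gzmk* was called there too, at 1.2 (0.05 to 2.26). *Ifng* in these cells was at -0.18 (-0.50 to 0.12), but it was called higher in each of the other groups of alpha-beta T cells of the brain. It was at 1.28 (0.92 to 1.64) in CD8 cells without NK receptors, 1.24 (0.82 to 1.64) in CD4 cells and 1.31 (1.02 to 1.60) in the remaining cells, with 37, 27 and 39 cells at D3. CD8 cells also had *Gzmb* called higher at 1.98 (1.55 to 2.41), *Gzmk* at 1.47, *Gzma* at 1.36, *Klrk1* at 1.2 and *Prf1* at 1.02 (0.15 to 1.83). In CD4 cells, *Gzmk* (4.70, 2.74 to 7.20, from 3 UMIs at S3 and 10 at D3), *Fasl* (2.17) and *Nkg7* (1.72) were called higher and *Gzma* lower at -2.59 (-7.93 to -0.05). *Gzma* went from 36.6 to 6.06 CPM there. Since the 10 *Gzmk* UMIs of these D3 cells made 60.6 CPM, the *Gzma* call rests on very few UMIs. The remaining cells had *Gzma* (2.49), *Fasl* (2.09), *Klrk1* (1.82) and *Nkg7* (1.47) called higher. The share of all genes called was not computed within these groups. Whether the calls in them exceed that share is therefore unknown.

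In alpha-beta T cells of the dura mater, 0 of the 10 genes were called higher and 3 lower, where 1.67% of 8379 genes were called higher and 1.53% lower. These counts rest on few cells. *Gzma* fell by 2.07 on the log2 scale, with 297 UMIs in 13 cells at S3 and 40 UMIs in 4 cells at D3, and 1 cell held 90% of the latter. With a stricter gate its ratio was -0.96. *Prf1* stood at 40 UMIs and 11 UMIs, log2 -1.04 (-2.15 to -0.05), and *Gzmc* at 216 and 2 UMIs, with 99.5% of the former in 1 cell and a ratio of 0.83 without it. *Ifng* was at 0.80 (0.45 to 1.16) in the dura mater, close to its value in the brain, and in CD4 cells it was called higher at 1.86 (1.06 to 2.74), with 25 and 21 cells. The share of all genes called was not computed for these CD4 cells. The median over the 10 genes was -0.23, beside 0.0 over all genes.

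**Figure D5:**
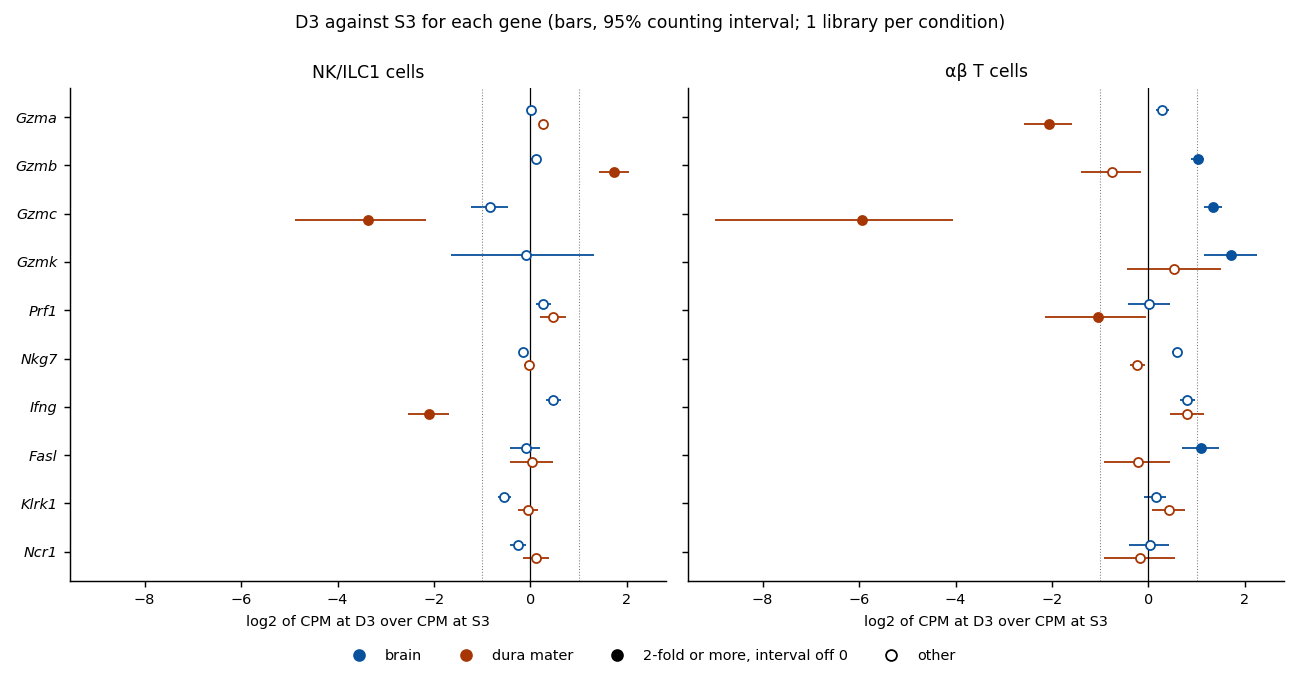
Log2 ratio of CPM at D3 over S3 for each gene in NK/ILC1 cells and alpha-beta T cells, brain and dura mater, with 95% counting intervals and dotted lines at 2-fold. Filled points were called. *Gzmb* of NK/ILC1 cells stands right of the line in the dura mater and near 0 in the brain, *Ifng* of NK/ILC1 cells stands left of it in the dura mater, and *Ifng* of alpha-beta T cells is alike in both tissues.

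Gamma-delta T cells gave the least firm ratios. In the brain, *Gzmb* was called higher at log2 1.39 (1.07 to 1.70) and *Gzma* lower at -2.12 (-2.68 to -1.60) of 9 genes, where 2.11% of 8388 genes were called higher and 1.79% lower. They rest on 6 and 3 cells at D3, and 1 cell held 78.9% of the *Gzma* UMIs at S3. *Gzma* turned to 0.85 when doublets were kept and was -1.17 without the top cells. In the dura mater, 2 of 9 genes were called higher (*Fasl*, *Gzmc*) and 2 lower (*Gzma*, *Ncr1*), where 1.76% of 8547 genes were called higher and 1.67% lower. *Fasl* was at log2 2.28 (1.03 to 3.72), with 7 UMIs in 5 of 117 cells and 26 UMIs in 9 of 90 cells. *Gzmc* had 0 UMIs at S3 and 108 UMIs in 1 cell at D3. *Gzma* and *Ncr1* each turned direction under a stricter and under a looser gate, and 0 of the genes were called after thinning.

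The second question of the design is how the tissues differed. These ratios use the same libraries as those above, so the values are given side by side. In NK/ILC1 cells at S3, *Gzmb* was 4.17-fold higher in the brain than in the dura mater, log2 2.06 (1.79 to 2.35), as 1 of 10 genes called higher and 0 lower, where 1.39% of 9558 genes were called higher and 3.45% lower. At D3 the *Gzmb* ratio was 0.43 (0.26 to 0.61). *Ifng* was at 2.90 (2.51 to 3.31) at D3. At S3 its ratio was 0.32 (0.11 to 0.53), but 1 dura mater cell held 61.2% of the S3 UMIs, and over the alternatives the ratio lay between 0.04 and 1.64, the latter without the top cells. At D3, *Ifng* and *Gzmc* were the 2 of 10 genes called higher in the brain, where 2.05% of 8836 genes were called higher and 3.54% lower. The *Gzmc* call rests on 77 UMIs in brain D3, 58.4% of them in 1 cell, against 6 UMIs. Without *Klrd1* in the gate *Gzmb* at S3 and *Ifng* at D3 were at 1.93 and 2.91, and *Gzmc* was called higher in the brain at S3 as well, at 3.57 (2.32 to 5.21). This S3 call rests on 177 *Gzmc* UMIs in 14 cells of brain S3, 52.5% of them in 1 cell, against 5 UMIs in dura mater S3. With *Klrd1* in the gate the *Gzmc* ratio at S3 was 0.56 and was not called. The share of NK/ILC1 cells with an *Ifng* UMI after thinning was 42.7% (34.1 to 51.7) in brain D3 and 11.1% (4.92 to 20.7) in dura mater D3. In alpha-beta T cells at S3, *Gzmb* was 3.00-fold higher in the brain, log2 1.58 (1.28 to 1.90), the 1 of 10 genes called, where 1.55% of 10808 genes were called higher and 4.08% lower. That call was lost under a looser gate, at 0.96.

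Of 47 other genes on a list for the same pathway (further granzymes, granule maturation, granzyme inhibitors, death receptors, interferon-gamma induction and response, receptor partners, ligands and chemokines), 41 were listed in the files. From S3 to D3 in NK/ILC1 cells, 2 of 36 were called higher and 1 lower in the brain, and 0 of 36 in either direction in the dura mater. Of all genes tested, 3.87% were called higher and 2.63% lower in the brain, and 2.51% and 2.09% in the dura mater. *Ifngr2*, a chain of the interferon-gamma receptor, had been called at 9.59 and 26.5 CPM, log2 1.47 (0.58 to 2.39), but stood at 2.42 and 1.40 CPM without *Klrd1* in the gate, with too few UMIs for a call. *Serpinb9b*, a relative of the granzyme inhibitor Serpinb9, rose from 28.8 to 60.7 CPM, log2 1.08 (0.54 to 1.62), and without *Klrd1* in the gate it was also called in the dura mater, at 1.07 (0.16 to 2.03). *Rab27a*, a GTPase of granule docking, fell by 1.01 on the log2 scale (41.9 to 20.9 CPM). The medians of the list were -0.21 in the brain and -0.10 in the dura mater.

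Between tissues, 4 of 36 genes of that list were called higher in NK/ILC1 cells of the brain at S3 and 0 lower, where 1.39% of all genes tested were called higher and 3.45% lower. At D3, 4 of 37 were called higher and 1 lower, where these shares were 2.05% and 3.54%. The genes called higher are named after their values were seen, and the 1 called lower is not named here. The chemokine *Ccl3* stood at 1498.4 CPM in brain S3 against 192.9 in dura mater S3, and at 831.4 against 200.1 at D3. *Ccl4* stood at 4322.2 against 1054.6 at S3 and 2952.0 against 963.3 at D3. *Xcl1* had log2 ratios of 1.30 and 1.45, and the death ligand *Tnfsf10* had 2.24 and 1.61. With the gate read without *Klrd1*, *Ccl3* stood at 1623.2 against 203.1 CPM at S3 and 1082.4 against 241.0 at D3. *Ccl4* was then at 4281.6 against 925.8 and 3675.3 against 1107.2 CPM, and *Xcl1* at 1802.1 against 792.8 and 1769.1 against 612.0. *Tnfsf10* was at 36.3 against 8.99 and 29.4 against 7.53 CPM, with fewer than 10 UMIs in the dura mater libraries together.

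Genes were ranked by how closely their log2(CPM + 1) followed *Prf1* or *Ifng* across 34 pairs of class and library with at least 20 cells. The 10 genes themselves, gate markers and genes under 100 UMIs in all were left out of the ranking. Of the rest, those closest to *Prf1* were *Klrc2* (Pearson r = 0.961), *Samd3* (0.956), *Klrc1* (0.945), *Sh2d1a* (0.938) and *Ugcg* (0.937). Those most like *Ifng* were *Sh2d1a* (0.965), *Gm2682* (0.962), *Btbd11* (0.960), *Klrc1* (0.949) and *Kcnj8* (0.939). Among the 10 genes r ran from 0.652 for *Gzmk* and *Klrk1* to 0.974 for *Gzma* and *Prf1*. The units share libraries and differ in depth and cell number, so these values describe the pattern over classes only.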

How the data were processed

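CD45+ cells of brain and dura mater, 1 library per condition, were mapped by the authors with Cell Ranger 3.1.0 to mm10 and normalized in Seurat 3.1.0. As deposited by the authors, a value is ln(1 + 10000 × UMIs of the gene / UMIs of the cell), a natural log. UMIs were recovered as whole multiples of each cell's smallest value. Unlisted genes were taken as 0.

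Kept cells had over 1000 and under 6000 genes, with mitochondrial UMIs of 7% or less. The Scrublet threshold in scanpy 1.11.5 marked 0 to 3 barcodes a library, so the highest scores were removed at 0.8% per 1000 barcodes. The plan had named fixed markers. The gates' limits and the subsets were set on these data, and the members and lists were chosen with earlier results of these data known. All 10 genes are named in every class, pathway genes where called in NK/ILC1 cells from S3 to D3, and the 5 genes most like *Prf1* and *Ifng*. Alternatives were gates doubled or halved in UMIs, no cell filter, doublets kept, thinning, means over cells, subtraction of the B cell level, 2500 cells drawn per library and a 1.5-fold threshold. Leaving out the top cell, the NK/ILC1 gate read without *Klrd1* (4 UMIs from 2 of the other 6 receptor genes) and the brain gamma-delta comparison were added after seeing the data. Ratio intervals and calls were run on simulated Poisson counts, the same model as the interval. The simulation held no clumping of UMIs in single cells, so it does not bear on clumped genes. Python 3.11.15, numpy 2.4.6, scipy 1.17.1, pandas 2.3.3 and matplotlib 3.10.9 were used.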

Additional observations from a re-analysis of the deposited data

Results flagged for a closer look

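Some genes stood on opposite sides of 0 in the brain and the dura mater from S3 to D3, with 1 library per condition, and the difference between the tissues was not tested. *Ifng* in NK/ILC1 cells had a log2 ratio of D3 over S3 of 0.48 in the brain and -2.1 in the dura mater. In alpha-beta T cells the ratios in brain and dura mater were 0.29 and -2.07 for *Gzma*, 1.03 and -0.76 for *Gzmb*, 1.34 and -5.93 for *Gzmc*, and 0.6 and -0.23 for *Nkg7*. The *Gzmc* value of the dura mater rests on 1 cell. That of *Gzma* rests on 40 UMIs at D3, most of them in 1 cell, and was -0.96 with a stricter gate. For *Ifng* in NK/ILC1 cells of the dura mater, 1 cell held most of the S3 UMIs, and the ratio was -1.04 as a mean over cells.

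Mast cells of the dura mater, a class outside these comparisons, held *Nkg7* at 30.5 CPM at S3 and *Gzmb* at 33.7 CPM at D3, above the intervals of B cells. Single cells held 84.6% and 90.9% of those UMIs. *Nkg7* was at 2.05 CPM in mast cells at D3 and *Gzmb* at 1.17 CPM at S3.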

How the results depend on the processing

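No paired analysis was possible because each condition has 1 library, and no library could be left out. Of 838 ratios of the 10 genes under the alternatives other than 1.5-fold, 672 stayed within the counting interval of the reported value, 156 left it and 10 called ratios turned direction. Counting uncalled ratios too, 97 had the opposite sign. The cause was not tested. The ratio of *Gzmc* in NK/ILC1 cells of the dura mater turned to 0.33 with the gate read without *Klrd1*. The ratio of *Gzmc* in alpha-beta T cells of the dura mater turned to 0.83 without the top cell. In gamma-delta T cells of the dura mater, *Gzma* turned to 0.39, 1.23 and 0.38 (stricter gate, looser gate, without the top cell) and *Ncr1* to 0.39, 0.06 and 0.38 (stricter gate, looser gate, thinned). In the brain, *Gzma* of these cells turned to 0.85 with doublets kept and *Gzmb* to -2.54 with 2500 cells drawn.

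Counts of genes called moved as follows. In NK/ILC1 cells of the brain (0 from S3 to D3) the count was 1 with no cell filter, 2500 cells drawn, 1.5-fold or without the top cell. In alpha-beta T cells of the brain (4) it was 1 with a stricter gate and 2 with no cell filter, and in those of the dura mater (3) it was 1 with a stricter gate and 5 at 1.5-fold. In gamma-delta T cells of the dura mater (4) it was 0 thinned and 2 without the top cell, and in the brain (2) it was 1 with a stricter gate, 1 with doublets kept and 4 with 2500 cells drawn. Between tissues at S3, NK/ILC1 cells (1) gave 2 with no cell filter, thinned, as a mean over cells or with the gate read without *Klrd1* and 3 without the top cell. Alpha-beta T cells (1) gave 3 with a stricter gate, 0 with a looser gate, 4 thinned, 2 as a mean over cells, 2 with 2500 cells drawn, 5 at 1.5-fold and 3 without the top cell. Pathway genes called (3) were 5 with a stricter gate, 1 thinned, 6 with the B cell level subtracted, 8 with 2500 cells drawn, 11 at 1.5-fold and 5 without the top cell. With no cell filter, 2 pathway genes were called higher and 2 lower in the brain and 0 in the dura mater. The shares of all genes called under the alternatives are not given here. Whether any of these counts exceed such shares is therefore unknown. The median share of UMIs in NK/ILC1 cells of brain S3 (40.5%) was 50.6% thinned. *Gzmk* had 2 to 14 UMIs a library in NK/ILC1 cells, and single cells held 33.3% to 91.2% of the *Gzmc* UMIs.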
